A study of Arabidopsis thaliana with 30 samples.

Results

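The line EAR-15-053 was compared with the Col-0 accession by RNA sequencing of Arabidopsis thaliana shoots. The comparison holds 6 of the 30 libraries of the series, chosen by their titles: replicates A, B and C of EAR-15-053 and replicates A, B and C of Col-0. Per the labels EAR-15-053 has the genotype EAR and Col-0 the genotype Col-0, and both are shoot tissue kept in RNA Later. The series title concerns plant growth and genome interrogation, an approach in which artificial transcription factors are expressed in plants and lines are picked by phenotype. EAR is the usual name of a short plant motif that recruits transcriptional repression, and Col-0 is a standard laboratory strain, here the unmodified control. A further group, the EAR pool 15 background with 3 libraries of genotype EAR, was read from its number as the pool of this line and is set beside it where stated. The target sequence, the promoter that drives the factor, whether the line comes from 1 transformant, the make-up of the pool, the age of the plants and the hour of harvest are not given in the sources used here.

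Background helps to read the genes that follow. The plant circadian clock is a loop of transcription factors in which the morning MYB factors CCA1 and LHY repress evening genes such as TOC1, and the pseudo-response regulators and the evening complex of ELF3, ELF4 and LUX repress genes of other times of day. Its outputs include the flowering regulators GI and FKF1, cold-regulated genes and the RNA-binding protein GRP7, and their levels swing strongly over a day. Salicylic acid is the hormone of defence against biotrophic pathogens, made largely through isochorismate and amplified by pipecolic acid signalling. Levels below are CPM, the reads of a gene relative to all reads on genes in a library, scaled between libraries with TMM. A gene is called where the p of edgeR's quasi-likelihood test, adjusted over all genes tested by the Benjamini-Hochberg method, was under 0.05. A log2 change is the log2 fold change of EAR-15-053 minus Col-0, and the value after ± is an approximate standard error. It was worked back from the test, as the absolute log2 change divided by the square root of the F statistic.

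The 3 EAR-15-053 libraries held 21120959, 21795629 and 24142353 reads on genes and the 3 Col-0 libraries 40780331, 10076308 and 19165556. Light-harvesting LHCB genes summed to between 74300 and 88500 CPM in the line and between 84600 and 99500 in Col-0, while the 10 root markers summed to between 57.7 and 64.0 against 68.4 to 93.0 CPM, with the root hair genes RHD6 and EXPA7 at 0 in both groups. The 7 flower markers summed to at most 1.4 CPM and the 4 seed storage markers to at most 0.206 CPM in any of the 6 libraries. Within a group, counts differed by more than sampling noise in each pair of libraries, with a chi-square per degree of freedom from 3.83 to 28.15. Replicate C of EAR-15-053 stood apart from A and B, at 46.6 on the second principal component (19.9% of variance) against -9.1 and -13.9. Plastid genes took 0.643, 0.568 and 0.182% of reads in Col-0 A, B and C and 0.171, 0.125 and 0.174% in the line. In bulk tissue, fewer cells of a type and less RNA per cell cannot be told apart, and nothing says that replicates came from separate plants, so the p-values rest on a spread between libraries that may be technical.

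Of 19566 genes tested, 2112 were called between EAR-15-053 and Col-0, which is 10.8%. Of these, 1013 were higher in the line (5.18% of genes tested) and 1099 lower (5.62%). At least 2-fold changes were fewer, at 277 genes higher (1.42%) and 153 lower (0.782%), and the median log2 change over all genes tested was 0.01. The 3 libraries of the line lay all above the 3 of Col-0 for 14.7% of genes tested and all below for 14.6%. Of the genes called, 95.5% did not overlap, so a lack of overlap adds little to a call. Clock genes changed in both directions and were 6 of the 12 largest decreases that did not overlap between the groups. Of the salicylic acid list 9 of 25 members were called higher, of the cell cycle list 8 of 23 and of the cold list 6 of 14 were called lower, and 1 gene of the PCC1 family, AT3G22240, had the largest decrease of all. The count moved with the libraries used: it was 793 without Col-0 B, 1091 and 1177 without line replicate A or B, and 231 without both Col-0 A and B. Without replicate C of the line, which stood apart, it was 1941. With only these 6 libraries in the fit 966 were called, 583 of them higher.

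**Figure D1:**
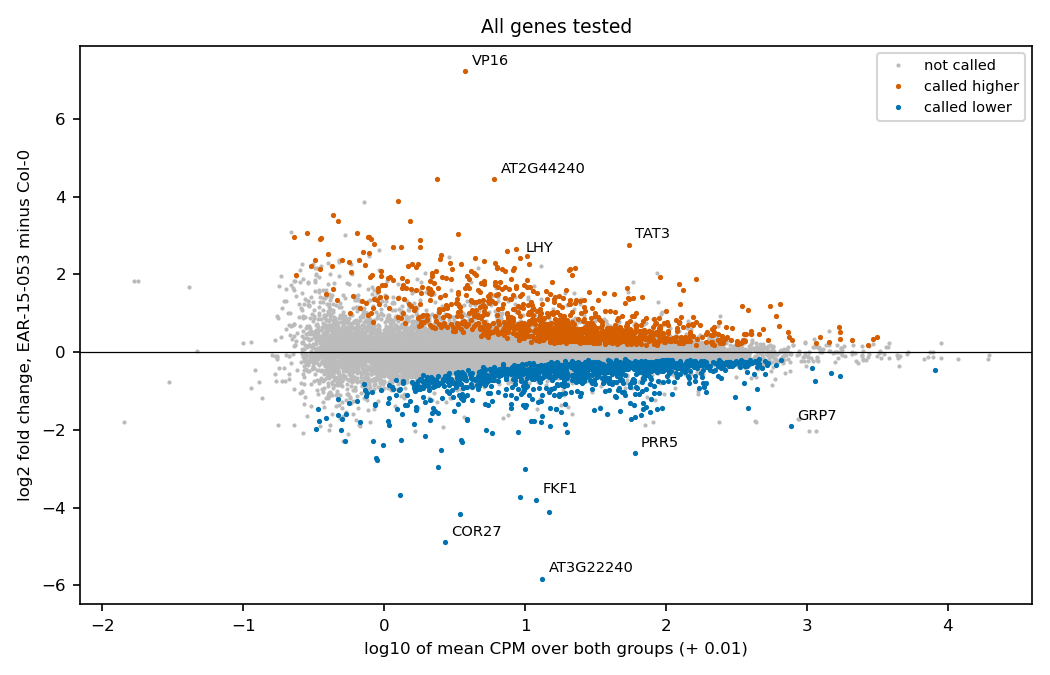
Each point is 1 of the 19566 genes tested, with the log10 of its mean CPM over both groups on the x axis and its log2 change on the y axis. Orange points are the 1013 genes called higher in EAR-15-053 and blue points the 1099 called lower. The entry VP16 at 7.24 and AT3G22240 at -5.83 are the extremes.

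The group set beside the line gave a different picture. Against the EAR pool 15 background, 1 of 19566 genes was called in EAR-15-053 (0.00511%), and 1133 had an unadjusted p under 0.05 (5.79%). DESeq2 called 17 in that comparison, 11 higher and 6 lower. The pool itself against Col-0 had 1293 called genes (6.61%), 650 higher (3.32%) and 643 lower (3.29%). That split became 830 higher and 467 lower when libraries were scaled by library size alone, and with the replicate letter as a block and only those 6 libraries 3364 genes were called. Without pool B, Col-0 B, Col-0 C or pool A the pool count was 430, 588, 765 or 846. Both comparisons with Col-0 use the same 3 Col-0 libraries, so their calls are given side by side and no likeness between them is read as a result. The Col-0 mean lay above the means of all other 9 groups of the series for 743 of the 1099 genes called lower in the line (67.6%, against 11.4% of all genes tested). It lay below all 9 for 558 of the 1013 called higher (55.1%, against 10.6%). Choosing genes by their difference from Col-0 raises these shares.

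The clock genes were the group with the highest share called, with 9 of 32 members higher in EAR-15-053 (28.1%) and 12 lower (37.5%), against 5.18% and 5.62% of all genes tested. The members called higher were morning MYB factors, LNK coactivator genes and CYCLING DOF FACTOR genes. Those called lower were afternoon and evening genes and outputs. LHY, a morning MYB repressor, was at 13.4, 11.8 and 21.5 CPM in EAR-15-053 A, B and C and at 3.47, 2.37 and 2.47 CPM in Col-0. All line libraries were above all Col-0 libraries, with replicate C highest, and the log2 change was 2.43 ± 0.28 (adjusted p = 8.78e-06). CCA1, its close partner, was at 48.1, 39.2 and 102 CPM against 25.7, 22 and 18.4 CPM. The groups again did not overlap, and CCA1 rose by 1.51 ± 0.24 on the log2 scale (adjusted p = 0.000349). RVE8, a related MYB factor that activates evening genes, was at 9.40, 10.2 and 19.4 CPM against 4.0, 4.54 and 4.05 CPM, a log2 change of 1.65 ± 0.25 (adjusted p = 0.000152).

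Of the 4 LNK loci on the list, whose products act as coactivators with RVE8, 3 were called higher. LNK3 (AT3G12320) rose by 1.32, LNK4 (AT5G06980) by 0.90 and LNK2 (AT3G54500) by 0.70 on the log2 scale, with adjusted p-values of 0.000342, 0.000298 and 0.0014. LNK1 (AT5G64170) was at 0.28 and not called (adjusted p = 0.562). Of the CYCLING DOF FACTOR genes, repressors of flowering genes, 3 were called higher, with log2 changes of 0.96 for CDF2, 0.88 for CDF3 and 0.75 for CDF1, and the list member AT1G69570, which the reference does not name, was at 0.63 and not called (adjusted p = 0.223). CDF1 was called in 1 of the 6 fits that each left out 1 library and CDF2 in 5. Other morning genes were not called: RVE1 had a log2 change of 0.90 (adjusted p = 0.0981) and PRR9 of 0.92 (adjusted p = 0.21). The MYB list members RVE2, LCL1 (RVE4), EPR1 (RVE7) and AT5G52660 were not called either.

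Among the pseudo-response regulators, transcriptional repressors that act in turn through the day, those of the afternoon and evening fell. PRR5 was at 24.6, 22 and 4.59 CPM in the line and at 91.6, 108 and 110 CPM in Col-0. Every line library lay far below every Col-0 library, and the lowest was replicate C (log2 change -2.60 ± 0.41, adjusted p = 0.000262). PRR3 was at 2.38, 3.56 and 0.846 CPM against 15.9, 17.1 and 20.4 CPM, a log2 change of -3.0 ± 0.32 (adjusted p = 3.89e-06). TOC1, the evening regulator at the other arm of the loop from CCA1 and LHY, was at 33.1, 30.9 and 18.0 CPM against 55.4, 60.6 and 63.2 CPM. Its decrease was smaller, at -1.13 ± 0.21 on the log2 scale (adjusted p = 0.00119). PRR7 had a log2 change of -0.09 (adjusted p = 0.412).

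The evening complex fell in all of its 3 subunits, by different amounts. ELF4 was at 0.811, 0.748 and 0.161 CPM in the line and at 4.97, 3.51 and 4.2 CPM in Col-0, so that no library of the line came near Col-0 (log2 change -2.94 ± 0.40, adjusted p = 7.08e-05). LUX, listed by the reference as PCL1 and the DNA-binding subunit, was at 10.5, 13.3 and 3.99 CPM against 25.1, 28.6 and 27 CPM, a log2 change of -1.54 ± 0.25 (adjusted p = 0.000397). ELF3, the scaffold, fell by 0.58 on the log2 scale (adjusted p = 0.0402), and was called in 2 of the 6 fits that each left out 1 library.

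FKF1, a blue-light receptor of flowering time that works with GI, was at 2.43, 1.92 and 0.564 CPM in the line against 20.6, 20.3 and 25.9 CPM in Col-0. With a log2 change of -3.79 ± 0.41 (adjusted p = 4.04e-06) it was among the strongest decreases of all genes. The related receptors ZTL and LKP2 had log2 changes of 0.13 and -0.16 and were not called. GI was at 57.7, 64.4 and 52.6 CPM against 113, 87.0 and 119 CPM, and its log2 change was -0.87 ± 0.24 (adjusted p = 0.0214). GI was called in 2 of the 6 fits that each left out 1 library. FKF1 overlaps another annotated gene, AT1G68060, as PCL1, ELF3 and the 3 LNK genes overlap others, and since strand use is not stated their reads may be partly shared.

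Of the output genes, COR27, which in Arabidopsis links cold and light to the clock, was at 0.191, 0.281 and 0.0403 CPM in the line and at 3.25, 6.29 and 6.10 CPM in Col-0. AT4G33980, a clock list member for which the reference gives no name, was at 0.525, 0.374 and 0.202 CPM against 5.49, 6.50 and 7.73 CPM. Both stood clear of Col-0 in every library, with log2 changes of -4.89 ± 0.67 (adjusted p = 7.08e-05) and -4.16 ± 0.60 (adjusted p = 0.000104). GRP7, an abundant RNA-binding protein whose transcript cycles with an evening peak, was at 416, 467 and 106 CPM against 1192, 1133 and 1344 CPM (log2 change -1.89 ± 0.34, adjusted p = 0.00105). Replicate C was the lowest of the line for GRP7, as it was for PRR5, PRR3, ELF4, FKF1 and COR27, and the highest for LHY and CCA1. CCR1, the GRP8 gene and nearest relative of GRP7, fell by 0.78 on the log2 scale (adjusted p = 0.0011) and did not show that spread, at 145, 144 and 134 CPM against 255, 249 and 223 CPM.

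None of these clock members was called against the EAR pool 15 background. Of all 19566 genes tested 1 was called there (0.00511%), so the lack of clock calls is not particular to these genes. FKF1 was at 1.49, 1.45 and 3.38 CPM in the pool, LHY at 13.6, 14.5 and 8.43 CPM, and PRR5 at 30.9, 28.9 and 31.1 CPM. The log2 differences of the line from the pool were -0.39 for FKF1 (adjusted p = 0.923), 0.36 for LHY (adjusted p = 0.866) and -0.84 for PRR5 (adjusted p = 0.851). The Col-0 mean lay below all other 9 groups for 9 of the 9 higher members and above all 9 for 10 of the 12 lower members. Over all genes called these shares were 55.1% and 67.6%, and choosing genes by their difference from Col-0 raises them. With any 1 library left out, 7 to 10 members were called higher and 10 to 12 lower. With Col-0 C as the sole Col-0 library, 5 were called higher and 9 lower.

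**Figure D2:**
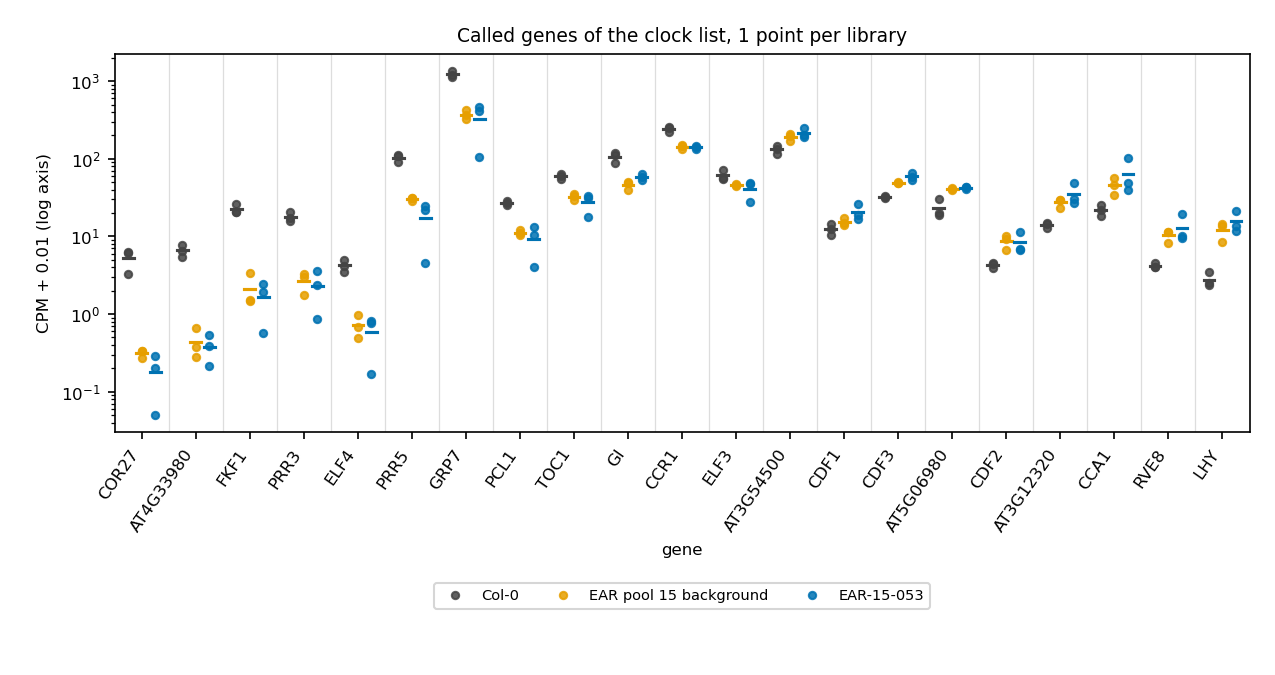
Levels of the 21 called clock list genes on a log axis, 1 point per library for Col-0 (grey), the EAR pool 15 background (orange) and EAR-15-053 (blue), with a bar at each group mean. The genes run from the largest decrease against Col-0 on the left (COR27) to the largest increase on the right (LHY).

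Other strong decreases fell on genes with products that the reference describes only in part. AT1G07050, a CCT motif family protein (the CCT motif is also found in pseudo-response regulators), was at 2.43, 1.45 and 0.967 CPM in the line and at 24.3, 27.9 and 31.1 CPM in Col-0. The groups were far apart, with a log2 change of -4.11 ± 0.36 (adjusted p = 3.2e-07), and the pool was low as well, at 1.65, 1.4 and 2.47 CPM. AT4G33467, an uncharacterized protein, had a log2 change of -3.71, and TPS03, a terpene synthase gene, of -3.67, from 2.1 to 2.68 CPM in Col-0. AT1G17665, annotated as a CA-responsive protein, fell by 2.52 and AT1G11210, of a family of unknown function, by 2.31 on the log2 scale.

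AT3G22240 was set apart from all of these by the pool. It is annotated as a PCC1-like protein with a cysteine-rich transmembrane domain and lies on chromosome 3. It was at 0.525, 0.374 and 0.484 CPM in EAR-15-053, which are 11, 8 and 12 reads, at 39.7, 23.7 and 14.9 CPM in Col-0 and at 43.1, 67.3 and 47.4 CPM in the pool. Each library of the line was thus far below each other library, and the other 27 libraries of the series ran from 14.9 to 81.0 CPM. The log2 change was -5.83 ± 0.52 against Col-0 (adjusted p = 3.2e-07) and -6.81 ± 0.51 against the pool (adjusted p = 2.52e-08). It was the 1 gene called against the pool. Leaving out any 1 of the 6 libraries gave an adjusted p against Col-0 of at most 1.35e-05.

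The genes around AT3G22240 did not share this decrease at the threshold. Of the 16 genes that the reference lists as the 8 on either side, 11 are in the files, 9 passed the filter on low counts and 0 were called against Col-0, where 10.8% of all genes were. PCC1, the pathogen- and clock-controlled gene that names the family, was at 183, 158 and 202 CPM in the line, 140, 129 and 86.8 CPM in Col-0 and 208, 343 and 178 CPM in the pool. Its log2 change against Col-0 was 0.61 ± 0.34 (adjusted p = 0.253). AT3G22235, annotated as a cysteine-rich stress tolerance protein of the same kind, was at 74.9, 58.3 and 83.9 CPM against 147, 99.5 and 66.8 CPM in Col-0, and at 212, 334 and 195 CPM in the pool. Line and Col-0 overlapped for AT3G22235 while the pool was above both, and its log2 change was -0.53 against Col-0 (adjusted p = 0.353) and -1.77 against the pool (adjusted p = 0.211).

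Further out, AT3G22230 had a log2 change of -0.25 (adjusted p = 0.0563), and AT3G22260, AT3G22270, AT3G22290, RPS10, PMH1 and NRPB5 lay between 0.01 and 0.08. AT3G22250 and AT3G22275 were at or below 0.429 CPM in every library of the 3 groups and were not tested. Reads shared between PCC1, AT3G22235 and AT3G22240, which are alike, could have been split or dropped in counting, so their separate levels are uncertain.

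**Figure D3:**
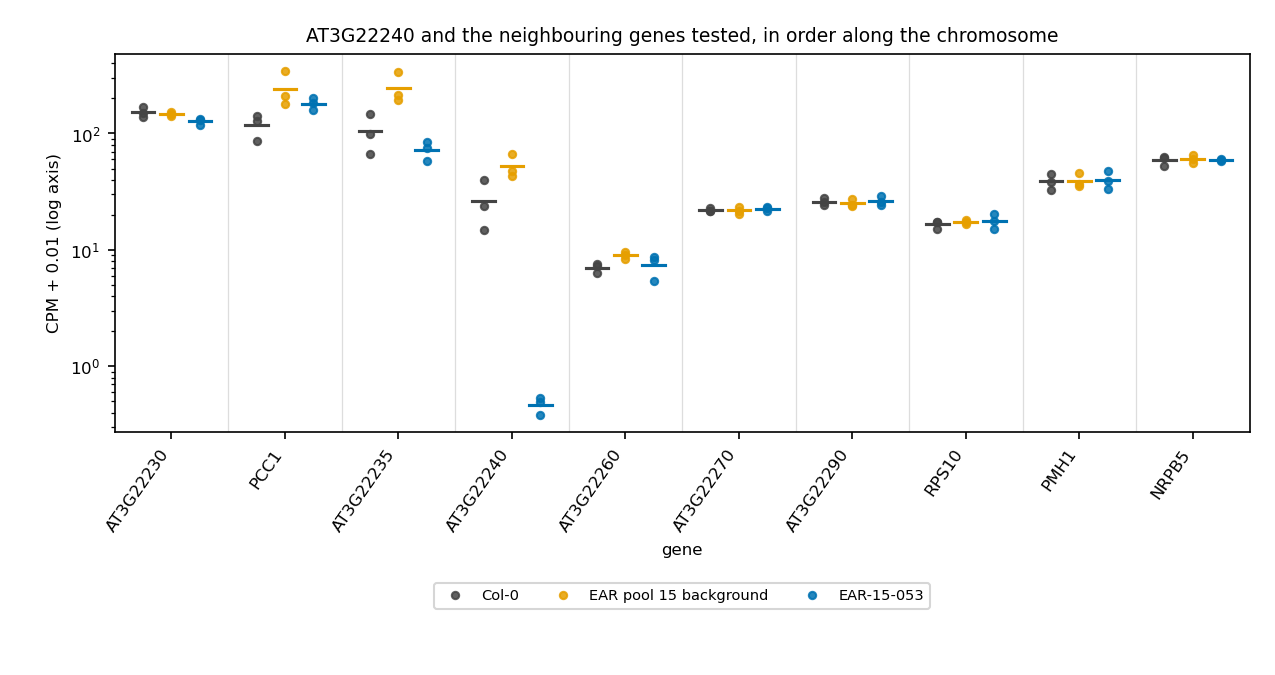
Levels of AT3G22240 and the 9 tested genes next to it, in their order along chromosome 3, on a log axis with 1 point per library and a bar at each group mean. AT3G22240 lies under 1 CPM in the 3 EAR-15-053 libraries (blue) and at 14.9 CPM or more in Col-0 (grey) and the pool (orange), while the means of the other genes differ by less than 2-fold between the line and Col-0.

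The files also list an entry named VP16, the name of a viral activation domain, which matches no locus of the reference. It was at 6.77, 6.41 and 9.19 CPM in EAR-15-053, or 142, 137 and 228 reads, and Col-0 held 3 reads in all. The ratio of reads per read on genes was 176, with an exact 95% interval of 60.0 to 859 that covers counting error only. The pool lay between them at 2.39, 1.25 and 3.01 CPM, and the log2 difference of the line from the pool was 1.76 (adjusted p = 0.211). Reads on this entry were not particular to the line, since the Col-0 mean lay below the means of all other 9 groups. EAR-15-025 was at 6.25, 5.64 and 4.54 CPM, near the line. The means of the EAR pool 13 background and EAR-13-068 were lower, at 2.68 and 0.79 CPM. Each group with VP16 in its title had a higher mean than the 7.46 CPM of the line. What sequence the entry holds, and why groups with EAR in their titles have reads on it, is not given in the sources used here.

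Some genes of salicylic acid defence were higher in the line. Of 25 members 9 were called higher (36%) and 0 lower, against 5.18% and 5.62% of all genes tested. The list median of the log2 change was 0.81 beside 0.01 over all genes tested. The members ran from -0.87 to 2.71, so some not named below were lower in the line. On the synthesis side EDS16, the isochorismate synthase, was at 45.3, 34.9 and 44.5 CPM against 24.9, 19.1 and 21.2 CPM. The groups did not overlap, and EDS16 rose by 0.92 ± 0.22 on the log2 scale (adjusted p = 0.0111). EDS5, the plastid transporter that exports isochorismate, rose by 0.96 (adjusted p = 0.00917), and PBS3, which conjugates it to glutamate, by 1.70 (adjusted p = 0.0266).

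Genes of the pipecolic acid branch were also called. ALD1, which starts pipecolate synthesis, was at 7.97, 8.42 and 5.96 CPM against 1.52, 1.55 and 1.05 CPM (log2 change 2.43 ± 0.70, adjusted p = 0.0281). FMO1, which makes N-hydroxypipecolic acid, was at 3.39, 3.84 and 2.22 CPM against 0.524, 0.413 and 0.420 CPM (log2 change 2.71 ± 0.79, adjusted p = 0.0289). AT5G52810 rose by 1.26 (adjusted p = 0.00108). UGT76B1, a glycosyltransferase of defence signals that is not on the list, was at 3.96, 1.78 and 1.29 CPM against 0.450, 0.103 and 0.315 CPM, a log2 change of 2.71 (adjusted p = 0.0222).

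At the output end, PR1, the usual marker of salicylic acid signalling, was at 238, 276 and 254 CPM in the line against 93.4, 81.9 and 34.4 CPM in Col-0. The line was tight and above all of Col-0, and the log2 change was 1.87 ± 0.60 (adjusted p = 0.0459). The pool was at 215, 433 and 147 CPM. The other PR genes of the list were not called, with log2 changes of 2.03 for BGL2 (PR2, adjusted p = 0.0597) and 1.81 for PR5 (adjusted p = 0.0603). WAK1, a wall-associated receptor kinase, was at 222, 218 and 132 CPM against 54.6, 49.0 and 64.6 CPM (log2 change 1.76 ± 0.38, adjusted p = 0.00544), and ACD6, an ankyrin membrane protein that promotes defence, rose by 1.25 (adjusted p = 0.0216). The regulators EDS1, SAG101 and NPR1 had log2 changes of 0.32, 0.19 and 0.22, and PAD4 of 0.72 (adjusted p = 0.0639), none of them called.

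These calls depended on the libraries. Without Col-0 B 3 members were called higher, without Col-0 C 4, without line replicate A 4 and 1 lower, without Col-0 A or line replicate B 5 and without line replicate C 7. With Col-0 C as the sole Col-0 library 1 was called, while the fit to these 6 libraries alone called 15. PR1 was called in none of the 6 fits that left out 1 library, PBS3, ALD1 and FMO1 in 1 each, and AT5G52810 and WAK1 in all 6.

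Some genes of the cell cycle list were lower. Of 23 members 8 were called lower (34.8%) and 0 higher, against 5.62% and 5.18% of all genes tested. The list median of the log2 change was -0.14. All 8 belong to G2 and mitosis. CDC20.1, an activator of the anaphase-promoting complex, was at 26.5, 25.3 and 29.8 CPM in the line against 38.6, 47.5 and 42.8 CPM in Col-0. The 2 groups were clear of each other, with a log2 change of -0.65 ± 0.11 (adjusted p = 0.000434). AUR1, the mitotic Aurora kinase, was at 9.02, 8.23 and 7.82 CPM against 12.7, 12.3 and 12.6 CPM (log2 change -0.59 ± 0.13, adjusted p = 0.00538).

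The mitotic cyclins CYCB1;4, CYC1BAT and CYCB1;1 fell by 0.68, 0.57 and 0.54 on the log2 scale, and the kinases CDKB2;2 and CDKB2;1 by 0.42 and 0.38. SYP111, the cytokinesis syntaxin KNOLLE, was at 25.8, 25.6 and 25.7 CPM against 34.2, 31.8 and 39.6 CPM (log2 change -0.46 ± 0.12, adjusted p = 0.014). The replication genes MCM2 to MCM6, PCNA1, PCNA2, RNR1 and TSO2 had log2 changes between -0.18 and 0.10, and none was called. The list members MCM7, CDT1A, CDKB1;1 and CDKB1;2 were not called either. Outside the list, the replication gene CDC6 was called lower, at -0.93. Whether the mitotic genes differ from the replication genes was not tested. Leaving out any 1 library left 6 to 8 of the list called lower, and 1 was called with Col-0 C alone. The fit to these 6 libraries alone called 5, and 1 with the replicate block added.

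**Figure D4:**
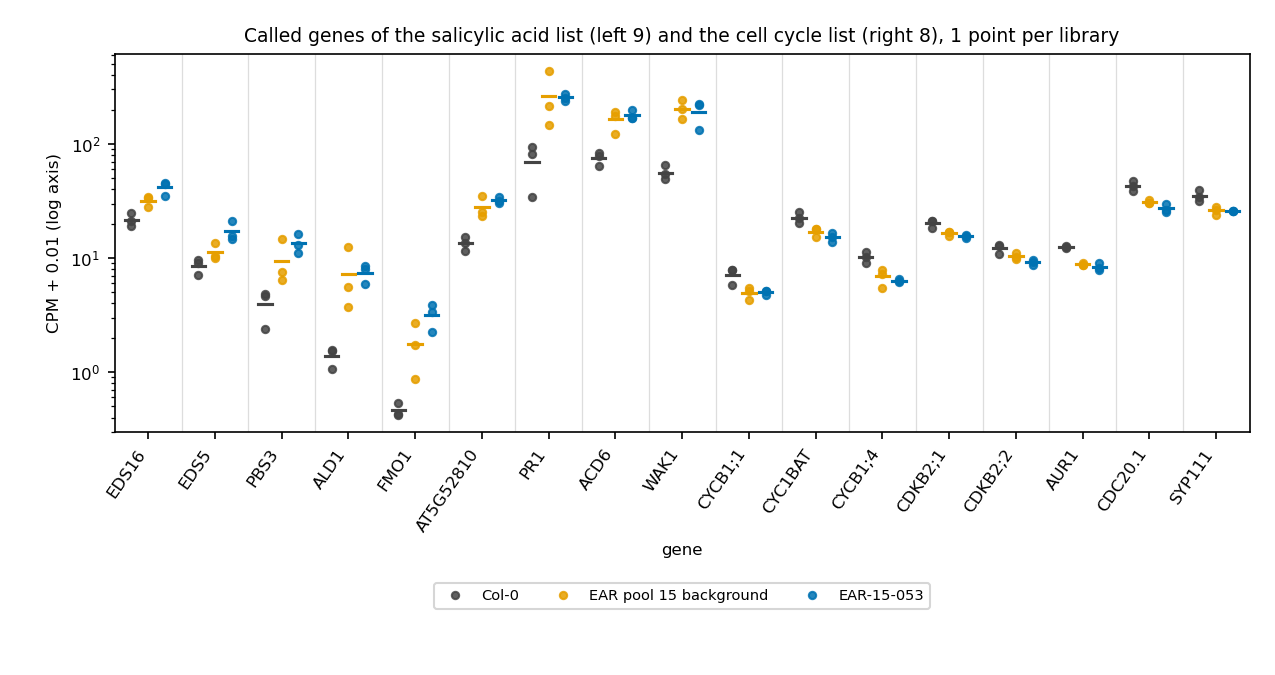
Levels of the 9 called salicylic acid genes (left) and the 8 called cell cycle genes (right) on a log axis, 1 point per library, with a bar at each group mean. The 3 EAR-15-053 libraries (blue) lie above all 3 Col-0 libraries (grey) for each defence gene and below them for each mitotic gene. Of all genes called, 95.5% did not overlap between the groups. The pool is in orange.

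Part of the cold response list was lower. Of 14 members 6 were called lower (42.9%) and 0 higher, against 5.62% and 5.18% of all genes tested. The list median of the log2 change was -0.44. The CBF factors, which switch on cold-regulated genes, were all at low levels. CBF1 was at 0.286, 0.234 and 0.363 CPM in the line and at 2.05, 1.14 and 0.893 CPM in Col-0, without overlap (log2 change -2.27 ± 0.46, adjusted p = 0.0034). CBF2 fell by 1.24 and DREB1A, the CBF3 gene, by 1.45. Of their targets, COR15B, a chloroplast protein that protects membranes in the cold, was at 48.0, 38.5 and 32.8 CPM against 147, 102 and 94.7 CPM (log2 change -1.53 ± 0.28, adjusted p = 0.0011).

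KIN2 was at 164, 131 and 89.1 CPM against 277, 250 and 251 CPM, a log2 change of -1.02 ± 0.21 (adjusted p = 0.00409). The membrane protein gene COR413-PM1 fell by 0.53. Other targets did not pass the test, COR15A at a log2 change of 0.13 (adjusted p = 0.806) and LTI78 at -0.02. Of the list 4 were called without Col-0 A and 0 with Col-0 C alone.

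Jasmonate genes were mixed between the libraries of the line. Of 26 members tested of 28, 5 were called lower (19.2%) and 2 higher (7.69%), against 5.62% and 5.18% of all genes tested. The median log2 change was -0.60. TIFY7 and TIFY10B, the repressors JAZ9 and JAZ2, fell by 0.90 and 0.63 and JAZ7 by 1.75. OPR3, an enzyme of jasmonate synthesis, was at 111, 64.5 and 37.8 CPM against 84.3, 192 and 172 CPM, so line replicate A lay within the Col-0 range (log2 change -1.06 ± 0.28, adjusted p = 0.0168). MYC2, the main transcription factor of the pathway, fell by 0.98 (adjusted p = 0.0146).

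CYP94B3, which breaks down the active jasmonate conjugate, was at 12.8, 0.561 and 0.202 CPM against 0.225, 0 and 0.263 CPM. Its log2 change of 4.45 rested on replicate A, and the groups overlapped. Without that replicate 0 members were called higher and 13 lower, without EAR-15-053 B 2 higher and 2 lower, and without Col-0 B 1 higher and 2 lower. JMT, which makes methyl jasmonate, rose by 0.79 (adjusted p = 0.00832).

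Abscisic acid and drought genes split, with 4 of 18 called higher (22.2%) and 2 lower (11.1%), against 5.18% and 5.62% of all genes tested. NCED3, the limiting enzyme of abscisic acid synthesis, was at 2.81, 2.34 and 2.34 CPM against 6.39, 4.95 and 4.31 CPM (log2 change -1.09 ± 0.19, adjusted p = 0.00103). P5CS1, of proline synthesis, fell by 0.78. HAB1, a phosphatase that restrains the pathway, rose by 0.71, ERD1 by 0.75 and RD22 by 0.65. RD20, called at 1.09, was at 24.9 CPM in line replicate A and 8.98 and 11.3 in B and C, against 5.59 to 8.30 CPM in Col-0. Of the list 2 were called higher without Col-0 B.

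Of rapid stress and touch genes 2 of 33 were called higher (6.06%) and 4 lower (12.1%), against 5.18% and 5.62% of all genes tested. The higher share was thus near that of all genes. DREB2A, CML38, ERF6 and WRKY18 fell by 1.27, 1.43, 1.4 and 0.98 on the log2 scale. For ERF6 the highest library was Col-0 A at 23.8 CPM, with 11.3 and 7.73 CPM in B and C and 3.56 to 8.87 CPM in the line, and ERF6 was not called without Col-0 A, line replicate A or line replicate B. WRKY46 and CML37 were called higher, at 1.38 and 1.86. Of the list 0 were higher without Col-0 A, B or C or without line replicate A, and 7 were lower without Col-0 C. The list's median of -0.18 became positive, at 0.23, without Col-0 A.

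The growth and nutrient lists held few calls, or calls in both directions. Among cell wall loosening genes 3 of 29 were called in each direction (10.3%), against 5.18% higher and 5.62% lower over all genes tested. XTH6, a wall-modifying transglucosylase, was at 82.3, 91.1 and 88.4 CPM against 48.7, 51.6 and 50.4 CPM (log2 change 0.80 ± 0.10, adjusted p = 2.31e-05), and XTH24 rose by 1.4. The expansin genes EXPA11 and EXP3 fell by 0.86 and 0.67 and XTH17 by 0.89, and without Col-0 A or line replicate A 1 of the list was called lower. GASA6, a gibberellin-regulated peptide gene, was at 43.3, 57.5 and 42.1 CPM against 124, 119 and 88.0 CPM and fell by 1.21, while BR6OX2, of brassinosteroid synthesis, rose by 1.04 and its receptor gene BRI1 by 0.61. PIF4, a light-regulated growth factor, fell by 0.40 (adjusted p = 0.00395), the 1 call of 10 in its list. Of 27 auxin response genes 1 was called, IAA14 at -0.47, and it was called in 1 of the 6 fits that left out 1 library.

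NRT1.1, the nitrate transporter and sensor, was at 45.8, 52.8 and 65.9 CPM in the line and at 30.2, 23.9 and 23.8 CPM in Col-0, above it in every library (log2 change 1.07 ± 0.20, adjusted p = 0.00156). BT1, a nitrate-responsive scaffold protein gene, fell by 1.47 and was called in 1 of the 6 fits that left out 1 library. Of 15 tested members of the phosphate starvation list PHO2 and MGD2 were called higher, at 0.51 and 0.77 (13.3%, against 5.18% of all genes tested). The list had 1 call without Col-0 B and 0 without line replicate C. In replicate C the list median relative to Col-0 was 1.02 log2 CPM, against 0.07 and 0.04 in A and B. Carbon starvation, sulfate and flavonoid genes showed the same spread within the line. In replicate C their medians were -0.98, 0.71 and 0.85, against 0.01 and 0.06, -0.40 and -0.84, and -0.06 and -0.18 in A and B. Of the 19, 19 and 18 genes tested in these lists, APS3 of sulfate activation was called, at -0.73, and DESeq2 called 1, 1 and 1. In the carbon starvation list 1 gene and in the flavonoid list 1 gene had an unadjusted p under 0.05. Over all genes tested edgeR called 10.8%, and 27.2% had an unadjusted p under 0.05.

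The lists of aliphatic glucosinolate synthesis, heat shock and floral transition had 0 of 23, 0 of 11 and 0 of 13 members called by edgeR, and 1, 4 and 2 members had an unadjusted p below 0.05. By DESeq2 the counts of members called were 1, 1 and 0. Over all genes tested edgeR called 10.8% (5.18% higher and 5.62% lower), and 27.2% had an unadjusted p under 0.05. In lists of this size 0 calls is thus near the share of all genes. Of 21 iron status genes YSL1 and NAS3, of iron chelate transport and nicotianamine synthesis, were called higher, at 0.71 and 1.15, and FER3, a ferritin gene, lower, at -0.30, and without Col-0 B 0 were called. Of 12 senescence genes NYC1, of chlorophyll breakdown, fell by 0.43 (adjusted p = 0.000282), while NYE1 and SAG13 were called higher, at 0.45 and 2.28. SAG13 was called in 1 of the 6 fits that left out 1 library, and of the list 1 was called higher in each of these fits but that without Col-0 B, where 0 were.

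In indole glucosinolate synthesis CYP79B3, an early enzyme, was at 44.1, 31.2 and 40.1 CPM against 85.1, 85.8 and 73.8 CPM (log2 change -1.08 ± 0.30, adjusted p = 0.0213). This gene was the 1 call of 10 members, where 5.62% of all genes tested were called lower. It was not called without line replicate B or Col-0 B.

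Few photosynthesis genes of the nucleus were called. Of 24 light-harvesting and Rubisco genes CAB3 was called, at -0.45 (adjusted p = 0.0135), and the list median was -0.08. Among cytosolic ribosomal protein genes 2 of 15 were called lower (13.3%, against 5.62% of all genes tested). These were AT2G19730 at -0.35 and RPS13A at -0.28, with 0 of the list called without Col-0 B and 4 without line replicate C. Of 91 plastid-encoded genes tested 19 were called lower (20.9%) and 0 higher, with a median log2 change of -1.17. That decrease moved with the plastid share of reads in Col-0 A and B given above: 1 was called without Col-0 B, 5 without Col-0 A and 49 without Col-0 C. It was 6, 5 and 12 without line replicates A, B and C, and with Col-0 C as the sole Col-0 library 0 were called and the median was -0.18.

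**Figure D5:**
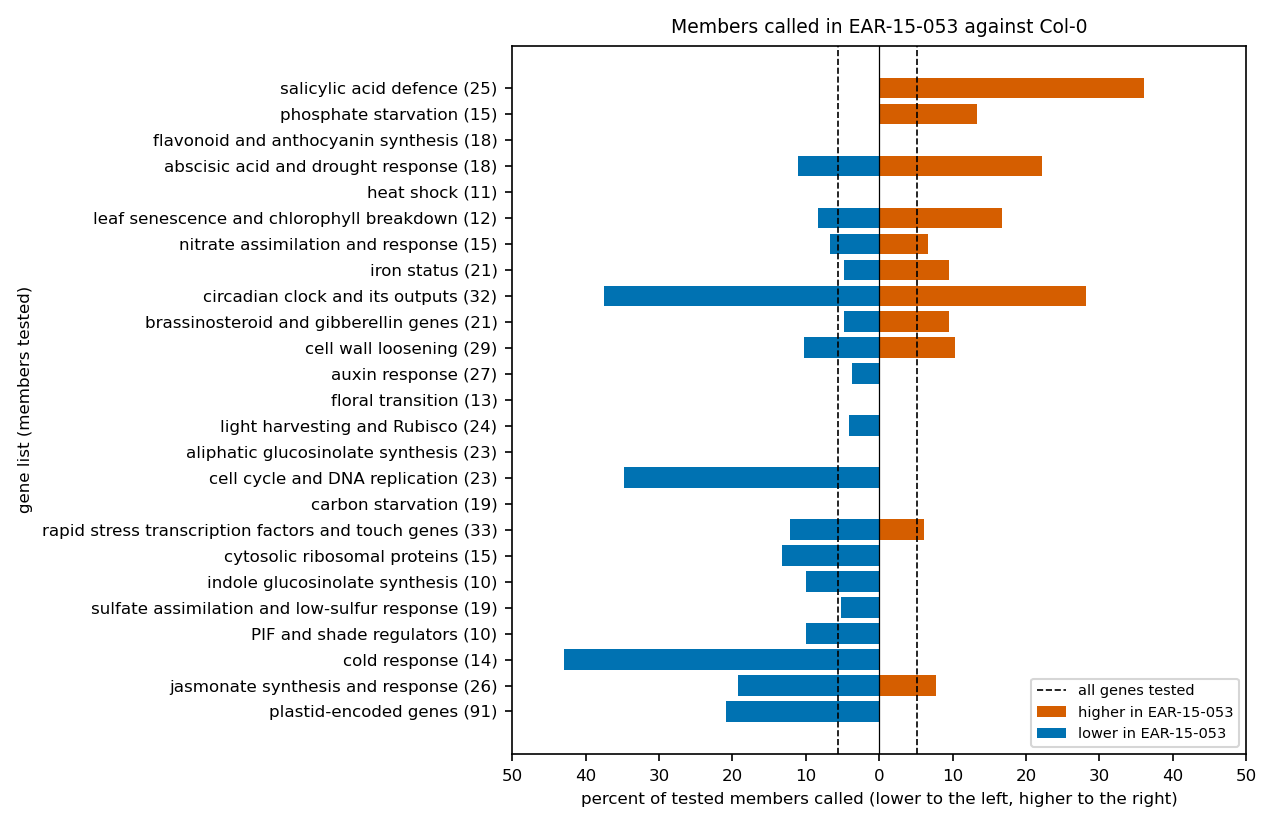
For each gene list, the percent of tested members called lower (blue, to the left) and higher (orange, to the right) in EAR-15-053 against Col-0, with the number tested in brackets and the lists ordered by their median log2 change. Dashed lines mark 5.18% higher and 5.62% lower, the shares over all genes tested. Clock genes reach 28.1% higher and 37.5% lower, salicylic acid genes 36% higher, and cold and cell cycle genes 42.9% and 34.8% lower, and several other lists, such as abscisic acid and jasmonate genes, also pass both lines.

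Several of the largest increases without overlap and with at least 2 CPM in the higher group fell outside these lists. AT2G44240, annotated as a NEP-interacting protein, was at 9.88, 12 and 12.7 CPM against 0.549, 0.825 and 0.315 CPM (log2 change 4.44 ± 0.92, adjusted p = 0.00398). TAT3, a tyrosine aminotransferase gene known for its jasmonate response, was at 157, 78.8 and 51.1 CPM against 11.5, 12.8 and 17.8 CPM (log2 change 2.77 ± 0.58, adjusted p = 0.00441). Both groups were clear of each other in these 2 genes, and in the pool AT2G44240 was at 8.30, 14.7 and 3.54 CPM and TAT3 at 53.5, 112 and 47.1 CPM.

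ELIP2, an early light-induced protein of the chloroplast, was at 15.8, 9.78 and 26.9 CPM against 3.25, 3.40 and 2.84 CPM, a log2 change of 2.48 ± 0.34 (adjusted p = 7.08e-05). MDHAR, which regenerates ascorbate, was at 26.9, 10.9 and 6.69 CPM against 2.35, 1.75 and 2.73 CPM, a log2 change of 2.65 ± 0.48 (adjusted p = 0.0011). AT2G45220, a pectin methylesterase and inhibitor gene, AT1G26390, a berberine-type oxidase gene, and NAC090, a transcription factor, rose by 3.03, 2.49 and 2.88. AT3G13610, a dioxygenase gene, rose by 3.39 and CAX3, a vacuolar calcium exchanger, by 2.60. AT3G13610 was called in 1 and CAX3 and UGT76B1 in 2 of the 6 fits that left out 1 library, and the other genes of this paragraph but NAC090, called in 5, in all 6.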

How the data were processed

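The tools listed in the submitters' processing notes are TopHat2 2.0.5 and HTSeq, and the build is TAIR10. The authors deposited whole-number counts of reads per gene for each library, with strand use not stated. Among their entries, 32679 name a gene or VP16, and 5 that name none (no feature 0.812 to 1.295% and ambiguous 1.324 to 1.443% in the 6 libraries) were left out. Gene names, products and gene order came from a TAIR10.1 reference, whose name differs, so no coordinates or sequences are given. In R 4.3.3, edgeR 4.0.16 with filterByExpr (minimum count 10) and TMM kept 19566 genes, and 1 quasi-likelihood model covered all 30 libraries (common biological coefficient of variation 0.13), with Benjamini-Hochberg adjustment. DESeq2 1.42.0 was an alternative. On simulated counts over 19415 genes for EAR-15-053 against Col-0, 75.8% of 2-fold and 98% of 4-fold changes and 0.0208% of unchanged genes were called. The simulated counts were drawn independently for each gene and library. They hold no shift of many genes in 1 library, such as that of line replicate C, and these rates do not cover it.

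Genes named were the 12 largest called changes each way without overlap (at least 2 CPM in the higher group), up to 5 called members per list by p, genes called against the pool, AT3G22240 with 8 neighbours on each side, and VP16. Further members of the clock, salicylic acid, cell cycle, cold, jasmonate, drought and stress lists were named after their values were seen. The comparison and lists were chosen with earlier results of these data known. Between the pool and Col-0, deviations from the group means correlated at 0.279, 0.207 and 0.15 for like letters. The main fit held no pairing, and the letter as a block was an alternative fit. No label states a pairing.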

Additional observations from a re-analysis of the deposited data

Results flagged for a closer look

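AT3G22240 was the 1 gene that edgeR called in the test of EAR-15-053 against the EAR pool 15 background, where DESeq2 called 17. Its log2 difference between line and pool was -6.81 (SE 0.51, edgeR adjusted p = 2.52e-08). It was lower in 3 of 3 libraries of the line than in each library of the pool and of Col-0.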

How the results depend on the processing

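For EAR-15-053 against Col-0, DESeq2 called 2400 genes, library size alone 1955, no filter on low counts 1721, exclusion of organelle genes 2101 and thinning of the 6 libraries to 10076308 reads 1709, each within 1.5 times the 2112. Like letters of the line and Col-0 did not deviate together (correlations -0.148, 0.086 and -0.223). With the letter as a replicate block 2055 genes were called, and with the replicate block and the 6 libraries alone 487. The 6 libraries alone gave 966 calls, 808 of them shared with the 2112, and leaving out 1 library gave 793 to 1941. Without both Col-0 A and B, an alternative added like the thinning after the data were seen, 231 were called, with the spread of the 1 remaining Col-0 library assumed to be that of other groups. Against the pool the count was 17 with DESeq2 and 1 to 2 with 1 library left out. For the pool against Col-0 it was 3364 with the replicate block and those 6 libraries alone, and 430 to 914 with 1 library left out. With the replicate block over all 30 libraries it was 1282. No sign of a called gene named by rule was reversed. Of 80 called, 80 were called by DESeq2, 77 with library size alone, 58 with the 6 libraries alone, 46 in all 6 fits without 1 library and 22 without Col-0 A and B. The cause of these shifts was not tested. Of the genes named by rule 17 overlap another annotated gene. Depth limits the low genes.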

Other observations

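Gene families grouped by their reference symbol, with at least 10 members tested, were looked at after values were seen and without a test. The cysteine-rich receptor-like kinases (CRK) had 15 of 35 members called higher in EAR-15-053 and 0 lower, with a median log2 fold change of 0.46, and CRK37 and CRK36 were at 2.28 and 2.17. Receptor-like proteins (RLP) had 10 of 43 called higher, RLP20 at 2.71 and RLP7 at 2.28. Glutamate receptor-like channels (GLR) had 6 of 15 called higher, GLR2.9 at 3.37 and GLR2.8 at 2.40, and the ABCC transporters 5 of 15. Over all genes tested 5.18% were called higher. Several of these families sit in clusters of like genes whose reads may be shared, and that share was not tested.

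On the lower side 3 families were picked out by their counts, and other families with lower calls are not described. The PTAC genes, nuclear genes for proteins of the plastid transcription complex, had 6 of 13 called lower, PTAC17 at -0.61 and PTAC6 at -0.54, beside the lower plastid-encoded genes whose decrease rested on Col-0 A and B. Ribosomal protein genes named RPL and RPS had 6 of 21 and 5 of 21 called lower, with medians of -0.22 and -0.20. Grouping by symbol does not separate genes for cytosolic ribosomal proteins from those for proteins of organelle ribosomes. Over all genes tested 5.62% were called lower.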
